A study of Mus musculus with 6 samples.

Results

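The genes described here are 10 genes of zinc handling, namely the metallothioneins *Mt1* and *Mt2*, the transcription factor gene *Mtf1*, the exporter genes *Slc30a1*, *Slc30a2*, *Slc30a4* and *Slc30a10*, and the importer genes *Slc39a4*, *Slc39a5* and *Slc39a8*. They were found by symbol among the 23366 genes counted, and all 10 passed the filter on low counts that kept 12501 genes for testing. The members were chosen by hand with the difference between mutant and wild type libraries in view, so their differences between the genotypes are given as a description, without *p*-values. RNA-sequencing was performed on EpCAM-positive epithelial cells sorted from the small intestine of mouse embryos at E13.5, with 500 cells and 15 cycles of PCR for each library. The mutant group held 3 libraries of untreated *Shh-cre-egfp:Tcf7l1 lox/lox* embryos, in which Cre is expressed from the *Shh* locus in the gut epithelium, and the control group held 3 libraries of untreated wild type embryos. The wild type embryos are not described as carrying Cre, so effects of the Cre allele and of *Tcf7l1* loss cannot be told apart. Strain background, litter and pooling of embryos are not given in the sources used here.

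Metallothioneins are small proteins rich in cysteine that bind zinc and copper ions in the cytosol. When free zinc rises, MTF1 binds short metal response elements in DNA and activates the metallothionein genes and *Slc30a1*, whose product carries zinc out of the cell. Proteins of the SLC30 family move zinc out of the cytosol, into vesicles or across the plasma membrane, and those of the SLC39 family move it into the cytosol. In the adult small intestine, SLC39A4 takes up zinc from the diet at the apical membrane of enterocytes, and SLC30A1 and SLC39A5 act at the basolateral membrane.

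The stretches upstream of 4 of these genes are shown because MTF1 acts through short words in them, and because *Mt1*, *Mt2* and *Slc30a1* had the highest log2 fold changes of mutant over wild type among the members and *Slc30a10* the lowest. Each is the 250 bases before the transcript start in RefSeq (GRCm38.p6), 5′ to 3′ on the strand of the gene, and each was found once on its chromosome in mm9. Capitals mark the core of the metal response element, searched on both strands as the word TGCACNC or the related word TGCGCNC. *Mt1* lies on the plus strand at chr8:96702739-96702988, *Mt2* on the plus strand at chr8:96696268-96696517, *Slc30a1* on the plus strand at chr1:193730410-193730659 and *Slc30a10* on the plus strand at chr1:187278477-187278726.
Mt1: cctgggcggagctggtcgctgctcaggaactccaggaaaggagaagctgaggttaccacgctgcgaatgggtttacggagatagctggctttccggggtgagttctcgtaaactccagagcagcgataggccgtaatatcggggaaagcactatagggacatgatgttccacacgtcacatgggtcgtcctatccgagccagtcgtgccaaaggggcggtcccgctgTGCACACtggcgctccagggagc
Mt2: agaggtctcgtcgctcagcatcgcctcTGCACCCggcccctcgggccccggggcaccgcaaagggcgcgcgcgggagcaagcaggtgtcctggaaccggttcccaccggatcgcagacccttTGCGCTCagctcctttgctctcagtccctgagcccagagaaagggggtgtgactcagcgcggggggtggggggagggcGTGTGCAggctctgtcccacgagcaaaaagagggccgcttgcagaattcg
Slc30a1: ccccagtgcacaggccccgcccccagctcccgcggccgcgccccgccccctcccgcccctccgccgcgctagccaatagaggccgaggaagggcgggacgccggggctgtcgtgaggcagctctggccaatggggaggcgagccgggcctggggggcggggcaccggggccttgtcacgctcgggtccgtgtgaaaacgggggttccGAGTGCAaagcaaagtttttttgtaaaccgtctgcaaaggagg
Slc30a10: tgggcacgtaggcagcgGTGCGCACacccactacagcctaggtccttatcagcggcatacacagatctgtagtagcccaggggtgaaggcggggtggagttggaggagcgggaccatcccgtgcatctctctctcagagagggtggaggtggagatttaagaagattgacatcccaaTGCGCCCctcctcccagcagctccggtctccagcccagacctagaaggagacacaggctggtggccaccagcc

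In these windows *Mt1* held 1 core, at positions -23 to -17 from the start, and *Slc30a1* held 1, at -43 to -37 on the opposite strand. *Mt2* held 3 cores, at -223 to -217, at -128 to -122 and, on the opposite strand, at -50 to -44. *Slc30a10* also held 3, and those at -233 to -227 and -232 to -226 overlap on opposite strands. Of 32851 promoter windows of this length, 21.4% held at least 1 core, 1.26% at least 3 and 0.0822% at least 5. The GENCODE annotation of mm9 gives *Mt1* 2 transcript starts, and the downstream one, 122 bases from the other, has 5 cores in the 250 bases before it. These lie at -145 to -139, -120 to -114, -102 to -96, -38 to -32 and -24 to -18, the fourth on the opposite strand. Windows were given for 9 of the 10 members, not for *Slc39a4*. *Mtf1* held no core in its window, *Slc30a2* and *Slc30a4* held 2 each, and *Slc39a5* and *Slc39a8* held 1 in 1 of their 2 windows. The windows follow RefSeq starts, and some are not upstream of the gene by GENCODE. Those of *Mtf1* and *Slc30a2*, the *Slc39a8* window with a core and the *Slc39a5* window without one lie inside the GENCODE span. The window of *Slc30a1* reaches into it. The core of TCF/LEF sites, searched on both strands as the word CTTTGAA, the word CTTTGAT, the word CTTTGTA or the word CTTTGTT, was in 14.8% of all windows and, of the members, in 1 window of *Slc39a8*. Of the 2 windows of *Slc39a10*, a related importer gene described below, 1 held 2 of these words, where 1.43% of all windows held at least 2, and the other held 0. A match of letters is a description of the window and does not show that a factor binds there.

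**Figure D1:**
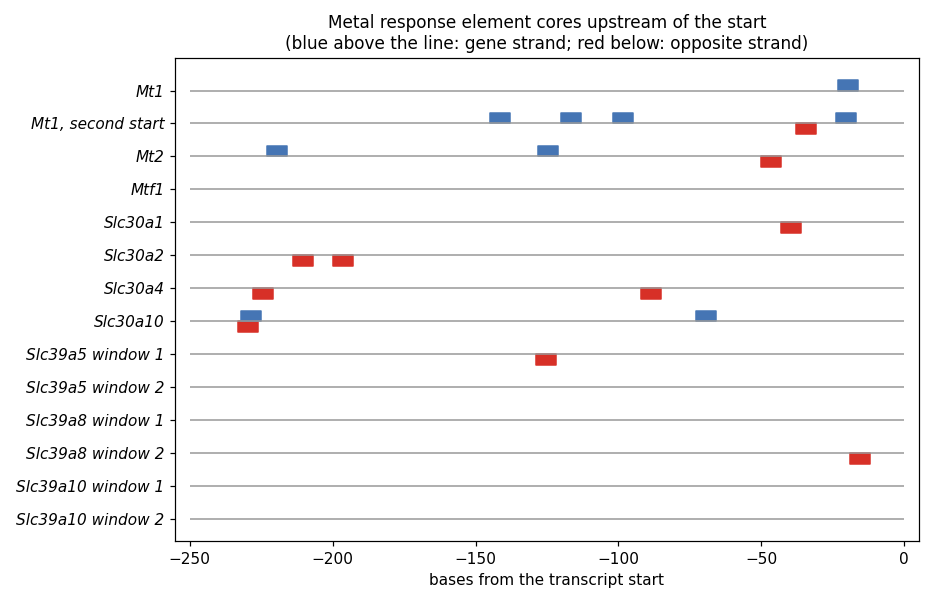
Positions of metal response element cores in the 250 bases before the transcript start (horizontal axis, bases from the start) for each window of the members and of *Slc39a10*, a related importer gene. Blue blocks above the line are on the strand of the gene and red blocks below it on the opposite strand, and the downstream start of *Mt1* has 5 blocks. Starts are those of RefSeq, save the downstream start of *Mt1*, and some windows lie inside the GENCODE span of the gene.

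The 6 libraries held 18216537 to 20397278 counts each. The targeted gene *Tcf7l1* had 508, 508 and 383 counts in the wild type libraries against 40, 31 and 66 in the mutants (log2 fold change -3.16, SE 0.26, adjusted *p* = 4.2e-07 by edgeR). *Xist* had 0 counts in all wild type and 229 to 424 in the mutant libraries, and the Y-linked *Kdm5d*, *Uty*, *Ddx3y* and *Eif2s3y* were at 0 counts in every mutant library, so the sex of the embryos and the genotype cannot be told apart in any result below. The test called 348 genes higher and 729 lower, so that 32.3% of the calls were higher. This share was 17.3% with library size as the only scaling and 67.5% with a correction for gene length. A gene was called where its adjusted *p* was below 0.01, it changed by 0.5 or more on the log2 scale in either direction, and its normalized count averaged 50 or more. All 8 epithelium markers (*Epcam*, *Cdh1*, *Krt8*, *Krt18*, *Krt19*, *Cdx2*, *Vil1*, *Cldn7*) were tested. Their summed levels were 7998 to 8518 CPM in wild type against 7759 to 7958 in the mutant libraries. CPM are counts scaled to a common effective library size, which is the library total times its TMM scaling factor. *Cdh1*, *Krt18* and *Cdx2* were called lower and 0 were called higher. The groups were fully apart for 5 markers that were lower and for 2 that were higher, *Epcam* (log2 fold change 0.25) and *Cldn7* (0.24). Of all tested genes, 22.2% and 20.8% were apart in these ways.

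Of the 10 members, 3 were called, and each of these was higher in the mutants, namely *Mt1*, *Mt2* and *Slc30a1*. Of all tested genes, 2.78% were called higher and 5.83% lower, and since the members were picked on this comparison nothing is read from their count. Wild type and mutant normalized counts were fully apart for 4 members that were higher (*Mt1*, *Mt2*, *Slc30a1* and *Slc39a8*) and for 2 that were lower (*Slc30a10* and *Slc39a4*), while 20.8% of all tested genes were apart in the first way and 22.2% in the second. The median log2 fold change was 0.15 over the members and -0.04 over all tested genes. Together the members held 289 to 304 CPM in wild type against 470 to 511 in the mutant libraries.

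**Figure D2:**
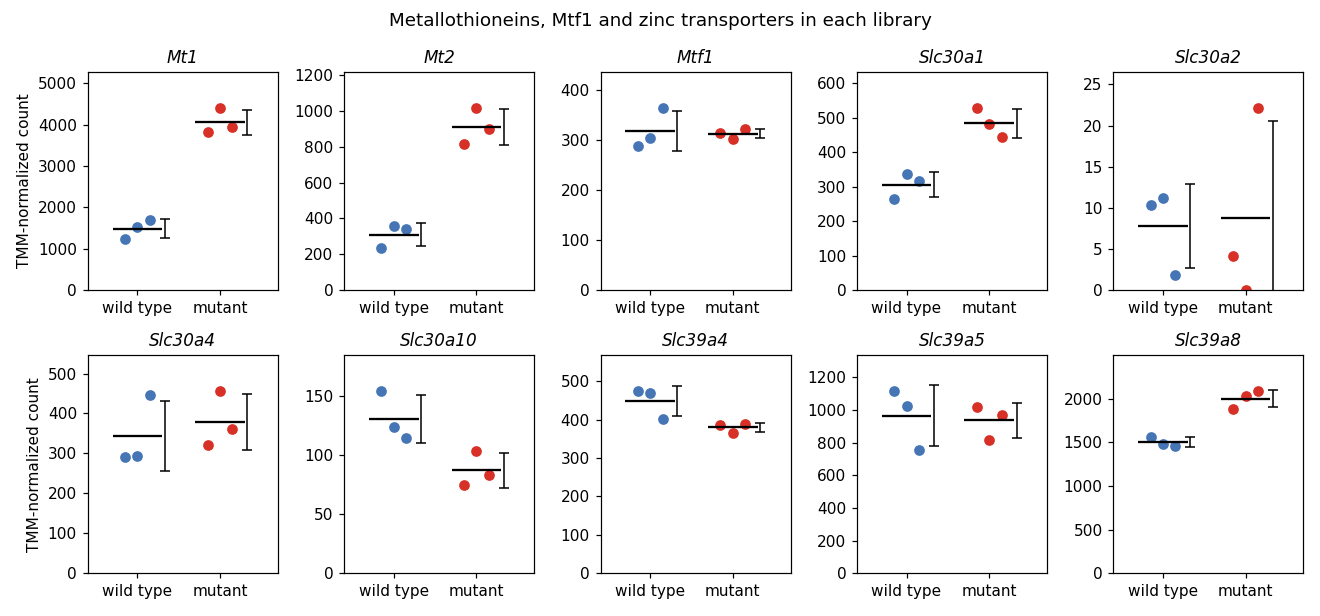
TMM-normalized counts (vertical axes, each from 0) of the 10 members in each wild type (blue) and mutant (red) library, with the mean as a line and the SD of 3 libraries as a bar beside it, cut at 0 for *Slc30a2*. All mutant points lie above all wild type points for *Mt1*, *Mt2*, *Slc30a1* and *Slc39a8*, and below them for *Slc30a10* and *Slc39a4*.

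*Mt1* (ENSMUSG00000031765) spans 96702989 to 96704225 on the plus strand of chromosome 8 in mm9, with 753 exon bases. Its normalized counts were 1244, 1522 and 1695 in wild type 1, 2 and 3, whereas mutant 1, 2 and 3 had 3820, 4399 and 3948. The lowest mutant library thus lay far above the highest wild type library. The means were 1487 ± 227 in wild type against 4056 ± 304 in the mutant libraries (SD, *n* = 3), a 2.73-fold higher level (log2 fold change 1.45, SE 0.10). Whether more cells expressed it or each cell held more of its RNA cannot be told apart in such bulk libraries, and this holds for all genes below.

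*Mt2* (ENSMUSG00000031762) lies 5521 bases upstream of *Mt1* on the same strand, from 96696518 to 96697467, with 556 exon bases. It had normalized counts of 234, 355 and 341 in the wild type libraries and 816, 1014 and 900 in the mutant libraries. The means were 310 ± 66.1 and 910 ± 99.3, a 2.93-fold higher level in the mutants (log2 fold change 1.55, SE 0.16). Wild type 1 was the lowest library and mutant 2 the highest for both metallothionein genes. No exon of another gene overlaps either of them, and the longest stretch of similar sequence between their transcripts covers 192 bases at 79.2% identity, so they are not near-identical copies.

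Both genes together form most of the metallothionein RNA, and their proportion was compared within each library. *Mt1* had 5.31, 4.29 and 4.97 counts for each count of *Mt2* in wild type 1, 2 and 3, whereas mutant 1, 2 and 3 had 4.68, 4.34 and 4.38. The ratio was 4.85 ± 0.52 in wild type against 4.47 ± 0.186 in the mutant libraries, and the groups overlapped. This ratio is taken within a library and does not depend on how libraries are scaled. The summed level of both genes was 92.1 ± 14.7 CPM in wild type against 254 ± 20.6 CPM in mutant libraries.

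The other metallothionein genes of the mouse are *Mt3*, known from the brain, and *Mt4*, known from stratified squamous epithelium. They lie on the same chromosome and were close to absent here. No library held more than 3 counts of either, so neither was tested.

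*Mtf1* (ENSMUSG00000028890), which encodes the zinc-sensing activator of these genes, lies on chromosome 4 from 124479348 to 124527044. It had normalized counts of 288, 303 and 363 in wild type against 314, 302 and 321 in the mutant libraries. All mutant values lay within the range of the wild type values, and the means were 318 ± 39.8 and 312 ± 9.26 (log2 fold change -0.03, SE 0.16). Its direction changed with the gene-length correction (0.19) and without wild type 3 (0.09). Exons of *1110065P20Rik* on the opposite strand cover 3.81% of its exon bases.

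*Slc30a1* (ENSMUSG00000037434) encodes the exporter of the plasma membrane and is, like the metallothionein genes, a well known target of MTF1. It lies on chromosome 1 from 193730646 to 193737126. Its normalized counts were 266, 337 and 316 in wild type against 528, 481 and 445 in the mutant libraries, with no overlap. The means were 306 ± 36.4 and 485 ± 41.8, a 1.58-fold higher level in the mutants (log2 fold change 0.66, SE 0.15). The difference was smaller than that of *Mt1*, so that the number of *Mt1* counts for each count of *Slc30a1* went from 4.67, 4.51 and 5.37 in wild type to 7.23, 9.14 and 8.88 in the mutant libraries. The call of *Slc30a1* was lost with library size as the only scaling (log2 fold change 0.56), without mutant 1 (0.60), without mutant 2 (0.67) and without wild type 1 (0.57). Exons of *1700034H15Rik* on the opposite strand cover 8.92% of its exon bases, and that gene had 6.58 normalized counts in wild type against 19.5 in the mutant libraries on average.

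*Slc30a10* (ENSMUSG00000026614), whose product is best known as an exporter of manganese, lies on chromosome 1 from 187278727 to 187292641. It had 154, 124 and 115 normalized counts in wild type against 74.6, 104 and 83.0 in the mutant libraries. The groups did not overlap, but wild type 3 and mutant 2 lay close to each other. The means were 131 ± 20.3 and 87.3 ± 15.4 (log2 fold change -0.58, SE 0.26), and *Slc30a10* was not called. *Slc30a1* had 1.73 to 2.74 counts for each count of *Slc30a10* in wild type against 4.61 to 7.08 in the mutant libraries. As these genes differed in opposite directions, this ratio follows from their differences and adds no separate result. Exons of *Gm2061* on the opposite strand cover 9.13% of its exon bases, with 3.74 normalized counts in wild type against 5.56 in the mutant libraries on average.

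*Slc30a4* (ENSMUSG00000005802), a vesicular transporter known for the zinc of milk, lies on chromosome 2 from 122506969 to 122528399. Its normalized counts were 291, 294 and 445 in wild type against 320, 455 and 361 in the mutant libraries, and the groups overlapped. The means were 343 ± 88.1 and 378 ± 69.1 (log2 fold change 0.14, SE 0.19). Wild type 3 and mutant 2 stood above the other libraries of their groups. Exons of *4930417H01Rik* on the opposite strand cover 2.37% of its exon bases.

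*Slc30a2* (ENSMUSG00000028836), another vesicular transporter, on chromosome 4 from 133899096 to 133910399, was near the limit of detection. Its raw counts were 11, 12 and 2 for wild type 1, 2 and 3, whereas mutant 1, 2 and 3 had 4, 0 and 20. The sums were 25 and 24 counts, and their ratio after scaling was 1.09 with an exact 95% interval from 0.596 to 1.99, which covers counting error only. A difference within these bounds was not detectable at this depth. The fit, which includes the spread between libraries, gave a log2 fold change of 0.15 with an SE of 1.02. Differences wider than these bounds may thus also have gone undetected. Without mutant 3 its log2 fold change was -1.84, against 0.15 with all libraries.

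*Slc39a8* (ENSMUSG00000053897) encodes an importer of zinc and manganese and lies on chromosome 3 from 135488243 to 135551536. Its normalized counts were 1566, 1487 and 1461 in wild type against 1888, 2034 and 2083 in the mutant libraries. The spread within each group was narrow, and no mutant library reached down to the wild type values. The means were 1505 ± 54.8 and 2002 ± 102, a 1.33-fold higher level in the mutants (log2 fold change 0.41, SE 0.09). This fell short of the 0.5 that a call required, and *Slc39a8* was called with the gene-length correction (0.63).

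*Slc39a4* (ENSMUSG00000063354), the importer of dietary zinc, lies on chromosome 15 from 76442815 to 76447322. It had 473, 470 and 402 normalized counts in wild type against 385, 366 and 389 in the mutant libraries. The groups did not overlap, although wild type 3 lay close to mutant 3. The means were 448 ± 40.0 and 380 ± 12.3 (log2 fold change -0.24, SE 0.14), and *Slc39a4* was not called. Neither of these importer genes was called, and there were 3.16 to 3.63 counts of *Slc39a8* for each count of *Slc39a4* in wild type against 4.90 to 5.55 in the mutant libraries. This ratio too follows from the differences of the genes, which had opposite directions, and adds no separate result.

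*Slc39a5* (ENSMUSG00000039878), the basolateral importer, lies on chromosome 10 from 127832990 to 127838280. Its normalized counts were 1112, 1025 and 757 in wild type against 1019, 818 and 969 in the mutant libraries, so the groups overlapped widely. The means were 965 ± 185 and 935 ± 105 (log2 fold change -0.04, SE 0.14). Its direction changed with the gene-length correction (0.03) and without mutant 2 (0.04) or wild type 1 (0.07).

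The spread between libraries of the same group is a description, since a choice by genotype difference can favour steady genes. The pooled SD within groups was 0.064 on the log2 CPM scale for *Slc39a8* and 0.0989 for *Slc39a4*, against a median of 0.149 over the 10565 tested genes with a mean normalized count of at least 50. Of those genes, which were not matched for count, 8.04% lay below *Slc39a8* and 24.5% below *Slc39a4*. *Mt1* had 0.177 and *Mt2* 0.257, which 59.4% and 77.1% of those genes lay below. *Mtf1* was at 0.127, *Slc30a1* at 0.151, *Slc30a10* at 0.229 and *Slc39a5* at 0.237. *Slc30a4* was the most variable member with more than 50 counts, at 0.306.

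Levels of different genes were compared as RPKM, the CPM divided by the exon length in kilobases, over 30 genes that make up the metallothionein, SLC30 and SLC39 families with *Mtf1* and *Tmem163*. *Mt1* was highest in both groups, with 101 ± 15.5 RPKM in wild type against 276 ± 20.7 in the mutant libraries. In wild type it was followed by *Slc39a7*, an importer of the endoplasmic reticulum, at 36.7 ± 6.27, then by *Slc30a5* at 33.3 ± 2.79 and *Slc30a6* at 28.7 ± 2.96, whose products load the secretory pathway with zinc. *Mt2* was at 28.6 ± 6.09 and *Slc39a5* at 23.1 ± 4.42 RPKM. In wild type the range of *Mt1* lay above that of every other gene, while each neighbouring pair from *Slc39a7* down to *Slc39a5* overlapped. In mutant libraries *Mt2* moved from the fifth to the second place, at 83.9 ± 9.15 RPKM. *Slc39a4* and *Slc39a8*, both at a mean of 10.1 RPKM in wild type, were at 8.61 ± 0.278 and 13.4 ± 0.68 in the mutant libraries. The lower members in wild type were *Slc30a4* at 3.21 ± 0.824, *Slc30a1* at 2.99 ± 0.356, *Mtf1* at 1.96 ± 0.245, *Slc30a10* at 1.15 ± 0.178 and *Slc30a2* at 0.112 ± 0.0737 RPKM, and the ranges of *Slc30a4* and *Slc30a1* overlapped. Summed over its 10 genes, the SLC30 family held 87.1 ± 2.5 RPKM in wild type against 99.5 ± 1.45 in the mutant libraries. The 14 genes of the SLC39 family held 117 ± 9.2 and 99.8 ± 6.57. Both sums include members chosen on the genotype difference, and a few genes carry most of their change. Mean RPKM went from 28.7 to 36 for *Slc30a6* and from 33.3 to 36.8 for *Slc30a5*. It went from 36.7 to 26.2 for *Slc39a7* and from 14 to 8.58 for *Slc39a10*, the only one of these genes that was called.

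**Figure D3:**
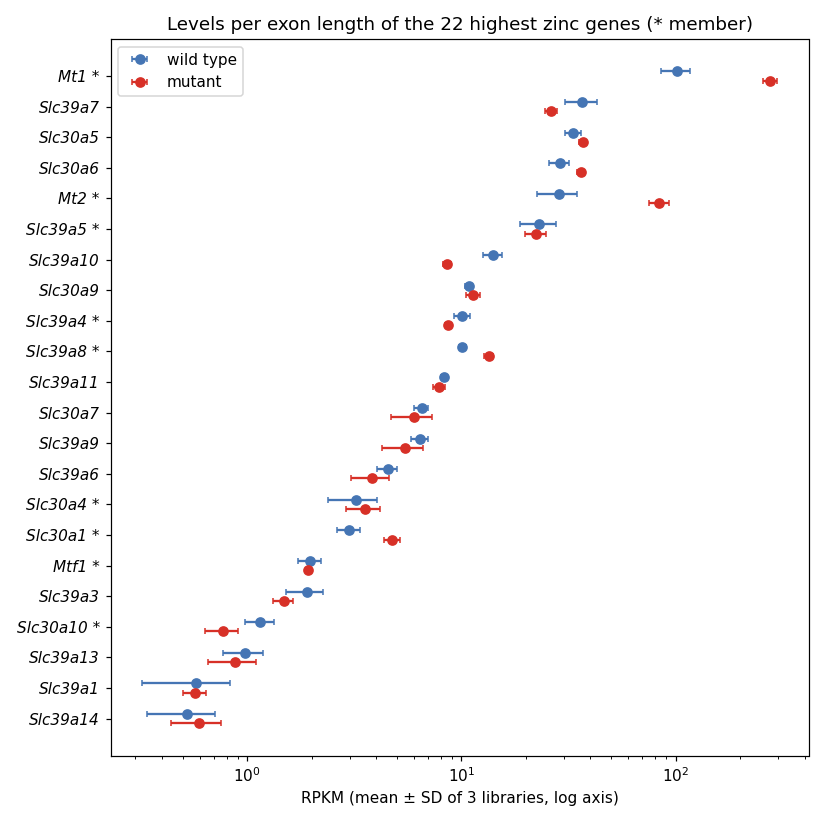
RPKM (horizontal log axis, mean ± SD of 3 libraries) of the 22 zinc genes with the highest wild type means, in wild type (blue) and mutant (red) libraries, with members starred. *Mt1* is highest in both groups, and *Mt2* moves from the fifth to the second place.

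The other genes of zinc handling are given beside the members. They are what was left of these families after the members were chosen on the genotype difference, so they cannot show whether the families moved as a whole. Of 20 genes that are not members, 13 were tested by edgeR's quasi-likelihood test, and 0 were called higher and 1 lower, beside the 2.78% and 5.83% of all tested genes. DESeq2 gave the same numbers, and 1 gene was higher and 2 were lower at an unadjusted *p* under 0.05, where 18.6% of all tested genes were higher and 21.6% lower. Their median log2 fold change was -0.12, against -0.04 for all tested genes.

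The gene called lower was *Slc39a10*, which encodes an importer of the plasma membrane and is known to be repressed by MTF1. Its normalized counts were 1600, 1482 and 1811 in wild type against 978, 971 and 1043 in the mutants (log2 fold change -0.71, SE 0.10, adjusted *p* = 1.2e-04 by edgeR). No mutant library came near the wild type range. The call was lost with the gene-length correction, at -0.49. Neither of its promoter windows held a metal response element core, and bases after the starts were not searched. The window at chr1:46982622-46982871 held 2 TCF/LEF cores, at -216 to -210 on the opposite strand and at -177 to -171. This window lies upstream of and outside the GENCODE span of the gene, 46864389 to 46910891 on the minus strand. The window at the 5′ end of that span, chr1:46910464-46910713, held 0.

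*Slc39a7* had 1961, 2109 and 1500 normalized counts in wild type against 1389, 1230 and 1356 in the mutants (log2 fold change -0.49, SE 0.12, adjusted *p* = 0.0056 by edgeR), just short of the 0.5 that a call required. Scaling by library size alone gave a call (-0.60), as did the analysis with the filter at a mean count of 50 (-0.50) and without wild type 3 (-0.60), and 80.1% of its exon bases are shared with *Gm20427* on the same strand. *Slc30a6* was at 1195, 1072 and 1318 in wild type against 1511, 1553 and 1437 in the mutants (log2 fold change 0.33, SE 0.10, adjusted *p* = 0.022). Its partner *Slc30a5* had a log2 fold change of 0.15 (SE 0.08, adjusted *p* = 0.21), and the groups overlapped.

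**Figure D4:**
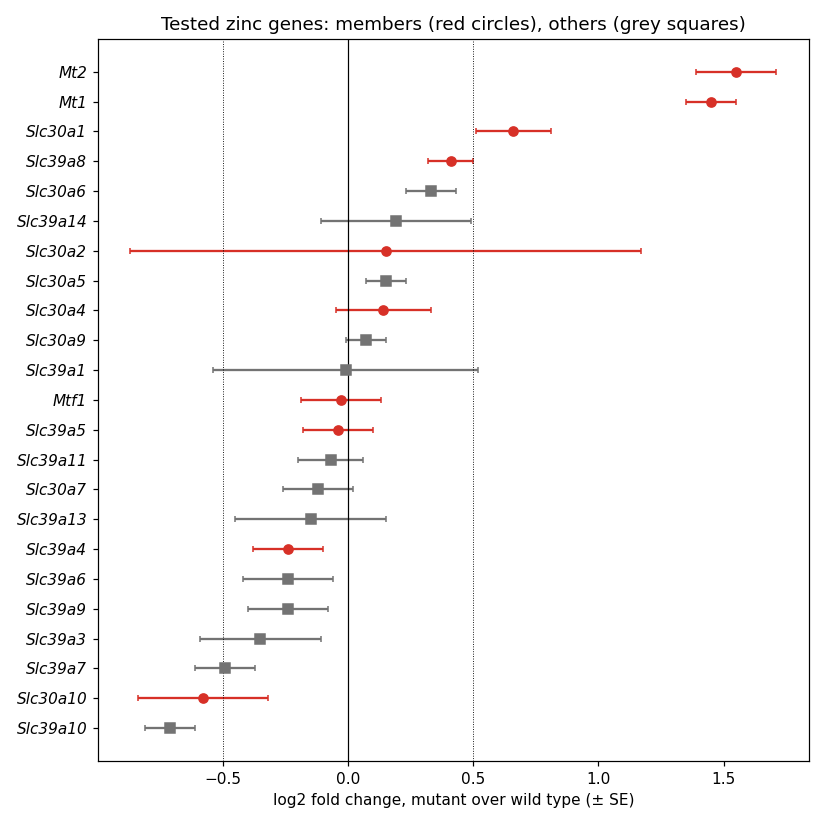
Log2 fold change of mutant over wild type libraries (horizontal axis, ± SE) for the 23 tested zinc genes, members as red circles and other genes as grey squares, with dotted lines at the size set for a call. *Mt2* and *Mt1* lie at 1.55 and 1.45, apart from *Slc30a1* at 0.66 and from all other genes shown.

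Metallothionein genes are also known to respond to other metals, to glucocorticoids and to oxidative stress, and genes of these responses were counted in the same fit. Of 6 other known targets of MTF1, *Sepw1*, a selenoprotein gene, was called higher (log2 fold change 0.55, SE 0.08, adjusted *p* = 8.4e-05) and *Slc39a10* lower. *Csrp1* and *Gclc* both had a log2 fold change of -0.36, with adjusted *p* values of 0.0022 and 0.017, and *Ndrg1* one of 0.05 (adjusted *p* = 0.73). *2700094K13Rik*, the gene of the selenoprotein SELH, had 2974, 2951 and 3407 normalized counts in wild type against 3973, 4475 and 4129 in the mutants, with no overlap (log2 fold change 0.43, SE 0.08, adjusted *p* = 0.0012), under the size required for a call. The call of *Sepw1* was lost with library size as the only scaling (0.45) and with the gene-length correction (0.39). The median of the 6 was -0.15. As the list holds *Slc39a10*, which MTF1 represses, beside other targets, no common direction is read from it.

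Of 10 tested genes of copper handling, 0 were called in either direction by edgeR or DESeq2, although 6 were higher and 1 lower at an unadjusted *p* under 0.05, beside 18.6% and 21.6% of all tested genes. Their median log2 fold change was 0.25. Of 12 genes of iron handling, *Tfrc*, the transferrin receptor, was called higher. It had 16290, 15268 and 19361 normalized counts in wild type against 26661, 26403 and 28563 in the mutants (log2 fold change 0.68, SE 0.08, adjusted *p* = 1.9e-05). The median of the iron genes was -0.05.

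Of 7 genes of the glucocorticoid response, *Sgk1*, a kinase gene, was called higher, with normalized counts of 324, 474 and 508 in wild type against 986, 847 and 980 in the mutants (log2 fold change 1.11, SE 0.15, adjusted *p* = 1.0e-04). *Fkbp5*, a gene of the same response, had a log2 fold change of 0.22 (SE 0.28, adjusted *p* = 0.60). The groups were fully apart for 1 gene of the list that was higher and for 3 that were lower. Of all tested genes, 20.8% and 22.2% were apart in these ways. The 3 lower genes were *Nr3c1*, the receptor gene (log2 fold change -0.43, adjusted *p* = 0.022 by edgeR), *Tsc22d3* (-0.31, adjusted *p* = 0.12) and *Zbtb16* (-0.92, adjusted *p* = 0.13). The median of the list was 0.07. Of 10 genes of the oxidative stress response, *Hmox1*, which encodes a haem-degrading enzyme, was called higher and *Slc7a11*, which encodes the cystine transporter, was called lower. *Hmox1* had 107, 161 and 125 normalized counts in wild type against 228, 307 and 210 in the mutants (log2 fold change 0.92, SE 0.22, adjusted *p* = 0.0066). The call was lost with library size as the only scaling (0.81), without wild type 1 (0.80) or 3 (0.90) and without mutant 1 (0.98) or 2 (0.74). *Slc7a11* had 154, 147 and 148 in wild type against 12.4, 8.52 and 5.53 in the mutants (log2 fold change -4.06, SE 0.37, adjusted *p* = 1.3e-06). *Nqo1* had a log2 fold change of -0.01 (adjusted *p* = 0.98), and DESeq2 also called *Keap1*, which encodes the repressor of NRF2, lower. *Nfe2l2*, the gene of NRF2 itself, had -0.23 (adjusted *p* = 0.022 by edgeR) and *Gclc*, also in this list, -0.36 (adjusted *p* = 0.017). The groups were fully apart for 2 genes of this list that were higher and for 4 that were lower. The shares of all tested genes are the 20.8% and 22.2% given above. The median of the list was -0.13.

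**Figure D5:**
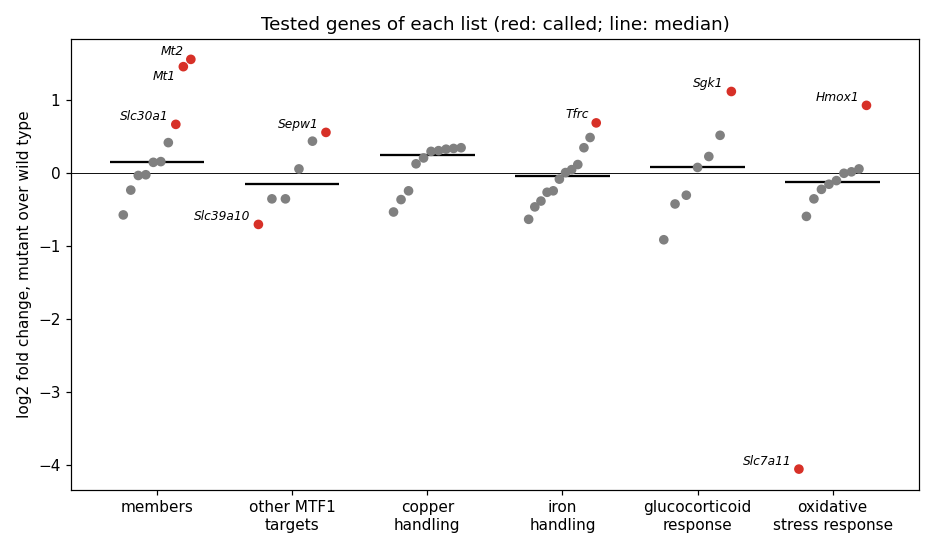
Log2 fold change of mutant over wild type libraries (vertical axis) for each tested gene of the members and of 5 related lists, with called genes in red and named and the median of each list as a line. The medians lie between -0.15 and 0.25, and each list holds genes on both sides of 0.

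Markers of other tissues that express metallothioneins were measured beside these results. The 13 liver markers summed to 105 to 122 CPM in wild type against 13.4 to 14.4 CPM in mutant libraries. *Ahsg* and *Kng1* were at 0 in every library, and *Alb* had 1, 6 and 0 counts in wild type and 0 in every mutant library. Of the 13, 8 had under 10 counts in every library. *Serpina1a*, *Serpina1b* and *Fgb*, the 3 that were tested, carried most of the sum and were called lower. The 10 pancreas markers summed to 6.26 to 7.54 CPM in wild type against 9.18 to 10 in the mutant libraries, with *Ptf1a*, *Prss2*, *Pnlip*, *Rbpjl*, *Ins1* and *Ins2* at 0 in all. The 10 mesenchyme markers summed to 7.26 to 16.0 and 6.95 to 27.1 CPM. Of these, *Acta2*, of smooth muscle, had 69.4, 105 and 87.4 normalized counts in wild type against 95.3, 171 and 489 in the mutants (log2 fold change 1.52, adjusted *p* = 0.014), and *Col3a1*, a collagen gene, had 42.2, 37.3 and 10.5 against 8.28, 6.39 and 4.42 (log2 fold change -2.21, adjusted *p* = 0.026). Neither was called. The 8 blood markers summed to 1.07 to 1.67 and 0.273 to 0.531 CPM, with *Hbb-b1*, *Hba-a1*, *Hba-a2*, *Hbb-bh1* and *Ptprc* at 0 in all. The part of liver, pancreas, mesenchyme or blood cells in the results was not tested.

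The profile of *Mt1* over the 6 libraries was closest to that of *Mt2* among 12500 other tested genes. Likeness was the root mean square difference of log2 CPM after each gene was centred on its mean, and it was 0.111 for *Mt2*. The next were *Kitl*, the ligand of the receptor KIT (0.115), *Golt1b*, of Golgi transport (0.116), *Rbm46*, an RNA-binding protein gene (0.144), and *F3*, which encodes tissue factor (0.144). *Kitl* had 470, 579 and 588 normalized counts in wild type against 1507, 1361 and 1395 in the mutant libraries. *Slc30a1* was in place 226, with a difference of 0.418, *Slc39a8* in place 928 and *Mtf1* in place 5107. The order rests mostly on the difference between the genotypes, and is a description.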

How the data were processed

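RNA-sequencing data of 3 mutant and 3 wild type libraries were used. The authors sequenced cDNA made with the SMARTer v4.0 kit, mapped the reads to mm9 with STAR 2.5.2b and deposited raw counts of uniquely mapping reads per gene from featureCounts 1.5.1 on a UCSC gene model. The strand setting is not given in the sources used here. The submitters call them biological replicates, without saying whether embryos were pooled, and *p*-values measure the spread between these libraries. Without a stated strand, reads of a gene and of an overlapping gene on the opposite strand cannot be told apart.

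Differential expression was tested in R 4.3.3 by edgeR 4.0.16 (filterByExpr, TMM normalization, quasi-likelihood test on genotype, Benjamini-Hochberg adjustment over all tested genes). The study's criteria were used, with a mean normalized count of at least 50 in place of its RPKM. Normalized counts are counts divided by the effective library size, times its mean, and log2 CPM used a prior count of 2. Positions, exon lengths and overlaps come from GENCODE for mm9, which gave a length for 94.2% of tested genes and is not the gene model of the counting. The scripts were tested on simulated data. Library pairs within a group had a chi-square of 6.30 to 17.9 per gene, where sampling noise gives about 1.

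The members and lists were chosen with earlier results of these data known. Genes named are the members, other zinc genes that were called or had the 3 highest RPKM, called genes of the other lists, the 5 genes nearest to *Mt1*, and *Tcf7l1* and 5 sex-linked genes. Genes named beside these, such as *Mt3*, *Mt4*, genes of the lists that were not called by edgeR and marker genes, fall outside this rule and were chosen after their values were seen. Alternatives were DESeq2 1.42.0, RLE scaling, scaling by library size alone, dropping the low-count filter or setting it at a mean count of 50, the replicate number as a block, leaving out 1 library at a time, and a gene-length correction by loess with a span of 0.5. Figures were drawn with matplotlib 3.10.9.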

Additional observations from a re-analysis of the deposited data

How the results depend on the processing

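The log2 fold changes of *Mt1* (1.29 to 1.57) and *Mt2* (1.36 to 1.66) kept their direction and call in all 13 alternatives, and that of *Slc30a1* (0.56 to 0.89) its direction. Over the members and alternatives, direction and call were kept in 114 values, the call was lost in 4 (all of *Slc30a1*) and gained in 1 (*Slc39a8*), and the direction changed in 10. The cause was not tested. Those that changed direction were *Mtf1* (0.19 with the gene-length correction, 0.09 without wild type 3, from -0.09 to 0.09 with 1 library left out), *Slc39a5* (0.03 with the gene-length correction, from -0.18 to 0.07 with 1 left out, and 0.00 without wild type 2), *Slc30a4* (-0.01 without mutant 2, up to 0.39) and *Slc30a2* (-0.42 with the replicate block, from -1.84 without mutant 3 to 0.73). Of all genes, 845 were called higher and 406 lower with the gene-length correction, which moved the median of all genes by 0.15, and 200 were called higher with library size as the only scaling, which moved it by -0.11. With 1 library left out, the number called lower ran from 405 without wild type 1 (406 without wild type 2, 463 without mutant 2) to 867 without wild type 3. It was 958 with library size as the only scaling and 895 with no filter on low counts. The other zinc genes called lower were 0 with the gene-length correction and 2 with library size only, with the filter at a mean count of 50 and without wild type 3, where *Slc39a7* joined *Slc39a10*, and were 1 to 2 with a library left out. Same-numbered libraries did not deviate together (correlations of -0.0449 to 0.00971), so the numbers were not taken as pairs. The replicate block gave 339 genes higher and 691 lower. Genes near 0 counts, such as *Slc30a2*, are limited by depth.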
